A study of Mus musculus with 9 samples.

Results

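The 26S proteasome subunit genes were examined in liver macrophages of mice labelled MAGL Mye-/- and MAGL fl/fl. Members were the rows whose symbol is Psma, Psmb, Psmc or Psmd with a number (Psmb1 to Psmb7 only), kept where the normalized value was at least 10 in at least 4 of the 9 libraries. Of 35 matching rows, 34 were kept, out of 15288 features past the same filter and 59445 in the table. They comprised 7 alpha and 7 beta subunits of the 20S core, 9 subunits of the 19S base, 8 of the 19S lid and 3 assembly chaperones of the base that carry Psmd names. The row left out was Psma8, the alpha subunit known from the testis, which read 0, 0, 76.8 and 14.9 in the fl/fl libraries and 0 in all 5 Mye-/- libraries. The lowest value of any kept member was 406, for Psmd5 in 1 fl/fl library, and the highest was 21647, for Psma7 in another. All 34 reached 10 in all 9 libraries, so none passed through 1 genotype alone.

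Male C57BL/6 mice were injected intraperitoneally 1 time with carbon tetrachloride, a liver toxin, at 0.6 mg/kg as labelled, and RNA was sequenced from F4/80+ CD11b+ cells sorted from their non-parenchymal liver fraction 24 hours later. MAGL stands for monoacylglycerol lipase, the product of Mgll, and fl/fl for an allele flanked by recombination sites. The control libraries S1, S3, S4 and S5 came from MAGL fl/fl mice, marked as wild type in the labels and all 11 weeks old. Libraries S8 to S12 came from MAGL Mye-/- mice, of which S8 and S12 were 11 weeks old and S9, S10 and S11 were 10 weeks old. The Cre driver, the deleted part of Mgll and any pooling of animals are not known from the labels, and every mouse of both genotypes received the toxin. Values below are listed in the order S1, S3, S4, S5 for fl/fl and S8, S9, S10, S11, S12 for Mye-/-.

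The proteasome is the protease that degrades proteins tagged with ubiquitin. Its 20S core is a barrel of outer rings of alpha subunits, which gate the entrance, and inner rings of beta subunits, some of which carry the catalytic sites. The 19S cap has a base, with a ring of ATPases that unfolds the substrate and threads it into the core, and a lid, which holds the enzyme that removes ubiquitin. In macrophages, interferon exchanges the catalytic subunits for those of the immunoproteasome, which favours peptides for display on MHC class I, and when proteasomes are inhibited the transcription factor NRF1, the product of Nfe2l1, raises the subunit genes together.

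Libraries held 33383559 to 46489349 reads recovered from the normalized values. Mgll itself was near the limit of detection, at 18.6, 0, 106 and 22.8 in fl/fl libraries and 30.4, 46.6, 5.93, 42.7 and 0 in Mye-/- libraries, so it gives no check of the genotype labels, which are used as deposited. The macrophage genes Adgre1, Itgam, Csf1r and Cd68 were high in every library. The summed level of the 5 macrophage markers was 322578 to 524398 in fl/fl and 257778 to 321254 in Mye-/- libraries. The fifth marker, Lyz2 (a feature shared with Lyz1), made the sum lower in Mye-/-, at 308919 ± 83367 (SD, n = 4) against 169027 ± 24893 (SD, n = 5; limma adjusted p = 0.218), whereas the other 4 had higher means there. Means of markers of other cells also differed, but none of those tested had a limma adjusted p under 0.05 (lowest 0.0832, Hba-a1). Hepatocyte markers (9 of 9 higher on average in Mye-/-) summed to 709 to 2092 and 1601 to 13691, the top value being S10. Kupffer cell markers (5 of 5 higher) summed to 7.16 to 464 and 205 to 1821, with Timd4 at 0 in every library but S12. Erythroid markers (5 of 5 lower) summed to 5525 to 35097 and 2344 to 6567. Neutrophil markers (3 of 7 lower, 4 higher) summed to 23997 to 44914 and 11963 to 33540, with Ly6g at or near 0. S100a8 and S100a9 made up nearly all of the neutrophil sums, whereas Ngp, Camp, Elane and Mpo had higher means in Mye-/-. On the log2 scale, however, Mpo was lower in Mye-/- (log2 fold change -1.21). Among Mye-/- libraries, Ngp was above 0 in S9 alone. Endothelial markers (4 of 4 with lower means) summed to 85.9 to 836 and 75.5 to 189. Of these, Kdr was higher in Mye-/- on the log2 scale (log2 fold change 0.32), and Stab2 was above 0 in S3 alone. The sums for T and B cells reached no more than 123 and those for stellate cells no more than 208, with Lrat at 0 throughout. Their part in the results that follow was not tested. In sorted cells measured in bulk, fewer cells of a type and less RNA per cell cannot be told apart.

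Nearly all proteasome subunit genes stood at a lower level in Mye-/- than in fl/fl macrophages. The log2 fold change, Mye-/- minus fl/fl on the log2(normalized value + 1) scale, was below 0 for 32 of 34 members, against 45.4% of all features tested and 50.9% of the 5717 features whose mean lay within the members' range. Its median was -0.33 (range -0.57 to 0.06), against 0.06 over all features. By limma with Benjamini-Hochberg adjustment over 15288 features, 0 of 34 members passed 0.05, where 0.0196% of all features did, and the members' adjusted p ran from 0.218 to 0.994. At an unadjusted limma p under 0.05, 16 members were lower and 0 higher, against 4.13% and 6.38% of all features. In the features of the members' range, 7.52% were lower at that level. DESeq2 on the recovered reads called 5 members lower and 0 higher, against 0.360% of all features called lower (0.700% in the members' range) and 0.595% called higher. edgeR's quasi-likelihood test called 0 members and 0.0131% of all features. In 9 members every Mye-/- value was below every fl/fl value, which held for 1.60% of all features and 2.59% of those in the members' range. The members and the comparison were chosen with earlier results known, so these counts describe the list.

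The summed reads of the 34 members made up 0.561%, 0.505%, 0.514% and 0.522% of all reads in the fl/fl libraries and 0.465%, 0.435%, 0.424%, 0.425% and 0.426% in the Mye-/- libraries. These shares did not overlap, with means of 0.525% ± 0.0247 (SD, n = 4) and 0.435% ± 0.0171 (SD, n = 5). A fl/fl library held the highest value of 33 members, and S1 alone held it for 17. Psma6, which peaked in S8, was the exception. The lowest value lay in a Mye-/- library for 26 members and in a fl/fl library for 8. Restricting the fit to 11-week-old mice, 4 fl/fl against 2 Mye-/-, gave a median of -0.26, against 0.07 over all features. In that fit 29 members were below 0 and 4 had an unadjusted limma p under 0.05. The matching shares of all features were not computed for it, so these counts have no background beside them. The members lie on 15 chromosomes.

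**Figure D1:**
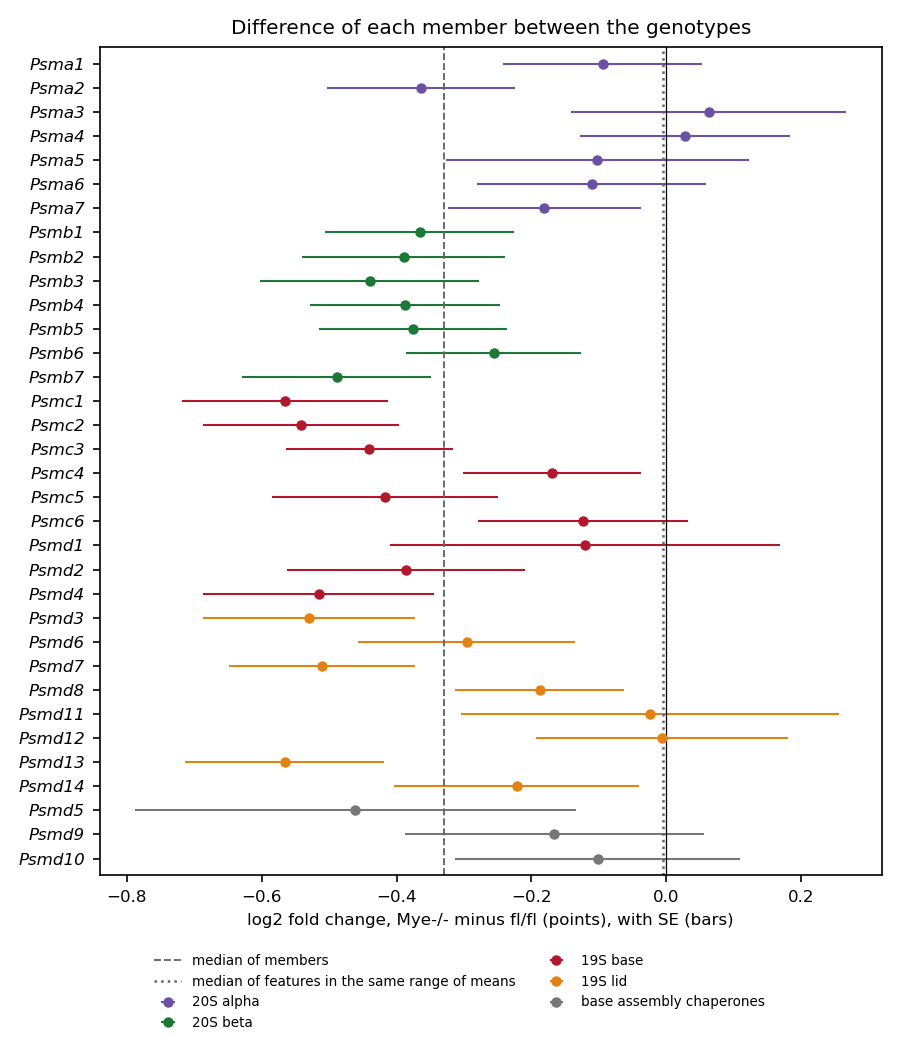
Log2 fold change (Mye-/- minus fl/fl, limma on log2(normalized value + 1)) of the 34 members, coloured by place in the particle, with bars of 1 standard error, a dashed line at the members' median of -0.33 and a dotted line at the median of features in the same range of means. Points of the beta, base and lid subunits all lie below 0 in this fit (Psmd1, Psmd11 and Psmd12 change sign under alternative settings), and among the alpha subunits Psma3 and Psma4 lie above it.

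RefSeq promoters (GRCm38.p6, the assembly of mm10, 250 bases before to 50 bases after the start) were at hand for 28 of the 34 members; Psmb1, Psmb2, Psmb7, Psmc3, Psmd3 and Psmd7 had no entry. Both strands were searched for 2 motifs: TGANNNNGC (GCNNNNTCA on the other strand), the core of the antioxidant response element bound by NRF1 and NRF2 with small MAF proteins, and the NF-Y box CCAAT, which reads in the opposite direction as ATTGG. The first was present in 16 of 28 member genes (57.1%) and in 45.0% of 27025 genes, and the second in 11 of 28 (39.3%) and in 41.1%. Matches of one never overlapped matches of the other in the members. Examples are shown for base and beta subunits with a fold change below 0 and without overlap between genotypes and for the 2 alpha subunits above 0, each 5′ to 3′ on the gene's strand with the motif in capitals and 15 bases on either side.
Psmc1, chr12:100110012-100110046, plus strand: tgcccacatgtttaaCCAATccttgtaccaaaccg
Psmc2, chr5:21785232-21785266, plus strand: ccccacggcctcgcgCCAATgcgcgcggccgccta
Psmd4, chr3:95042690-95042724, minus strand: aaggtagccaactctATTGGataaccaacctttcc
Psmb5, chr14:54618019-54618057, minus strand: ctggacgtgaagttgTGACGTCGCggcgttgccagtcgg
Psma3, chr12:70974469-70974503, plus strand: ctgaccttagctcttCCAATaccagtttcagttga
Psma4, chr9:54950717-54950755, plus strand: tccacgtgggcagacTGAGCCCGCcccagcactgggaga
Both motifs occurred in members with fold changes below 0. CCAAT also occurred in Psma3 and TGANNNNGC in Psma4, whose log2 fold changes of 0.06 and 0.03 were smaller than their standard errors (0.20 and 0.16). The relation of the motifs to fold change was not tested. The stretches leave out other matches in the same genes. Psmc2 has a second promoter with 2 TGANNNNGC matches. In the searched bases, Psmb5 and Psma4 each have 2 TGANNNNGC matches, and Psma3 and Psmd4 each have 3 CCAAT matches. A match is a string of letters and no measured binding site. Median GC content was 55.8% over the 30 member promoters and 52.7% over all 32851.

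The base of the 19S cap had the lowest median log2 fold change of the places in the particle, -0.42, but not without S1, where it was -0.27 against -0.33 for beta and -0.32 for the lid. With array weights the beta median was likewise lower, -0.35 against -0.34, and without S1 and S3 the lid median was lowest. All 9 base members were lower on average in Mye-/- macrophages (Psmd1 was higher in 3 of 16 alternative settings), with 6 of 9 at an unadjusted limma p under 0.05, and 4 without overlap between genotypes. The 6 ATPases alone had a median of -0.43. Psmc2 (chromosome 5, 21785282 to 21803787, mm10), the ATPase Rpt1, had normalized values of 4192, 4553, 5079 and 4427 in fl/fl libraries and 3519, 3234, 2710.3, 2679 and 3618 in Mye-/- libraries. The fl/fl libraries were alike, each above every Mye-/- library, and S10 and S11 were lowest. Means were 4563 ± 376 (SD, n = 4) and 3152 ± 441 (SD, n = 5), which is a log2 fold change of -0.54 ± 0.15 (SE), with an adjusted p of 0.218 by limma and 0.0458 by DESeq2.

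Psmc1 (chromosome 12, 100110151 to 100123405), the ATPase Rpt2, whose C-terminal tail helps open the core's gate, read 7584, 4753, 7164 and 5619.9 in fl/fl and 4685, 4276, 3884, 3737 and 4335 in Mye-/-. S1 and S4 were far above the rest, whereas S3 came within reach of S8, although no value overlapped. Its mean went from 6280.3 ± 1323 (SD, n = 4) to 4183 ± 378 (SD, n = 5), or -0.57 ± 0.15 (SE) as a log2 fold change, with an adjusted p of 0.218 by limma and 0.0387 by DESeq2. Psmc3 (chromosome 2, 91054016 to 91066369), the ATPase Rpt5, stood at 9008, 8548, 7464 and 8294 in fl/fl and 6534, 6511, 5539, 6216 and 5875 in Mye-/-. Its 2 sets of libraries were well apart, S4 being the lowest of fl/fl. Means of 8329 ± 648 (SD, n = 4) and 6135 ± 427 (SD, n = 5) gave a log2 fold change that was -0.44 ± 0.12 (SE), with an adjusted p of 0.245 by limma and 0.0179 by DESeq2.

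In the other ATPases the values of the genotypes overlapped. Psmc5 had a log2 fold change of -0.42, Psmc4 of -0.17 and Psmc6 of -0.12. Of the non-ATPase base subunits, Psmd4, a receptor that binds ubiquitin chains, read 11129, 5518, 7243 and 5901 in fl/fl and 5285, 4695, 5137, 5042 and 4897 in Mye-/-. The Mye-/- libraries were tightly grouped, and S1 exceeded every other library by a wide margin. For Psmd4 the log2 fold change was -0.52 ± 0.17 (SE), and -0.30 without S1. Psmd2, a scaffold of the base, had a similar profile, with 14851 in S1 against 7103 to 9430.0 in the other fl/fl and 6387 to 9209 in the Mye-/- libraries. Here the log2 fold change was -0.39 ± 0.18 (SE), and -0.19 without S1. Psmd1, the other scaffold, had the largest p of the base, with 1626, 647, 568 and 1193 in fl/fl and 953, 963, 650.2, 881 and 821 in Mye-/-. S1 and S5 were above all Mye-/- libraries, and S3 and S4 below them. This gave a log2 fold change of -0.12 ± 0.29 (SE, limma adjusted p = 0.911), and 0.15 without S1.

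The lid members ranged from a log2 fold change of -0.57 to one of -0.01. All 8 had a fold change below 0, although Psmd11 and Psmd12 were above 0 in 5 and 7 of 16 alternative settings, with a median log2 value of -0.26, 3 of 8 at an unadjusted limma p under 0.05, and the same count without overlap between genotypes. Psmd13 (chromosome 7, 140882393 to 140898644), the lid subunit Rpn9, read 6207, 8509, 7544 and 6243 in fl/fl and 5144, 5869.5, 4145, 4500.3 and 4382 in Mye-/-. S3 was highest, and S9 came closest to the fl/fl libraries without reaching them. Means were 7126 ± 1113 (SD, n = 4) and 4808 ± 699 (SD, n = 5), with a log2 fold change at -0.57 ± 0.15 (SE) and with an adjusted p of 0.218 by limma and 0.0325 by DESeq2.

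Psmd7 (chromosome 8, 107580381 to 107588482), the lid subunit Rpn8 that pairs with the deubiquitinase Psmd14, stood at 4703, 4297, 4639 and 3803 in fl/fl and 3219, 3304, 3056, 2676 and 3038 in Mye-/-. The lowest fl/fl library, S5, was above all 5 Mye-/- libraries. Psmd7 thus had a log2 fold change of -0.51 ± 0.14 (SE), from 4360.4 ± 412 (SD, n = 4) to 3059 ± 241 (SD, n = 5), with an adjusted p of 0.218 by limma and 0.0277 by DESeq2. Psmd14 itself, the enzyme Rpn11 that removes ubiquitin, read 3991, 6812, 7099 and 7813 in fl/fl and 6868, 5232, 5376, 5115 and 4409.7 in Mye-/-. S1 was here the lowest library of all, and the genotypes overlapped, with a log2 fold change of -0.22 ± 0.18 (SE), which was -0.44 without S1 and -0.11 without S5. Psmd3, the lid subunit Rpn3, read 4121, 3262, 3720.3 and 3196 in fl/fl and 2045, 3035, 2215, 2627 and 2512 in Mye-/-. No value overlapped, with S9 close below S5 and S8 lowest. Psmd3 had a log2 fold change of -0.53 ± 0.16 (SE), with an adjusted p of 0.267 by limma and 0.126 by DESeq2.

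Psmd12, the lid subunit Rpn5, had the largest p of the lid and of all members, with 2116, 3003, 1686 and 2925 in fl/fl and 2606, 2323, 2277, 1941 and 2715 in Mye-/-. S3 and S5 were above the Mye-/- libraries and S4 below all of them. Means of 2433 ± 639 (SD, n = 4) and 2372 ± 304 (SD, n = 5) gave a log2 fold change that was -0.01 ± 0.19 (SE, limma adjusted p = 0.994). Psmd11, which helps join lid and base, likewise had a log2 fold change of -0.02, Psmd8 of -0.19 and Psmd6 of -0.30. The median of the lid moved from -0.26 to -0.43 when the fit included how many features each library detected, and to -0.38 without S1 and S3.

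**Figure D2:**
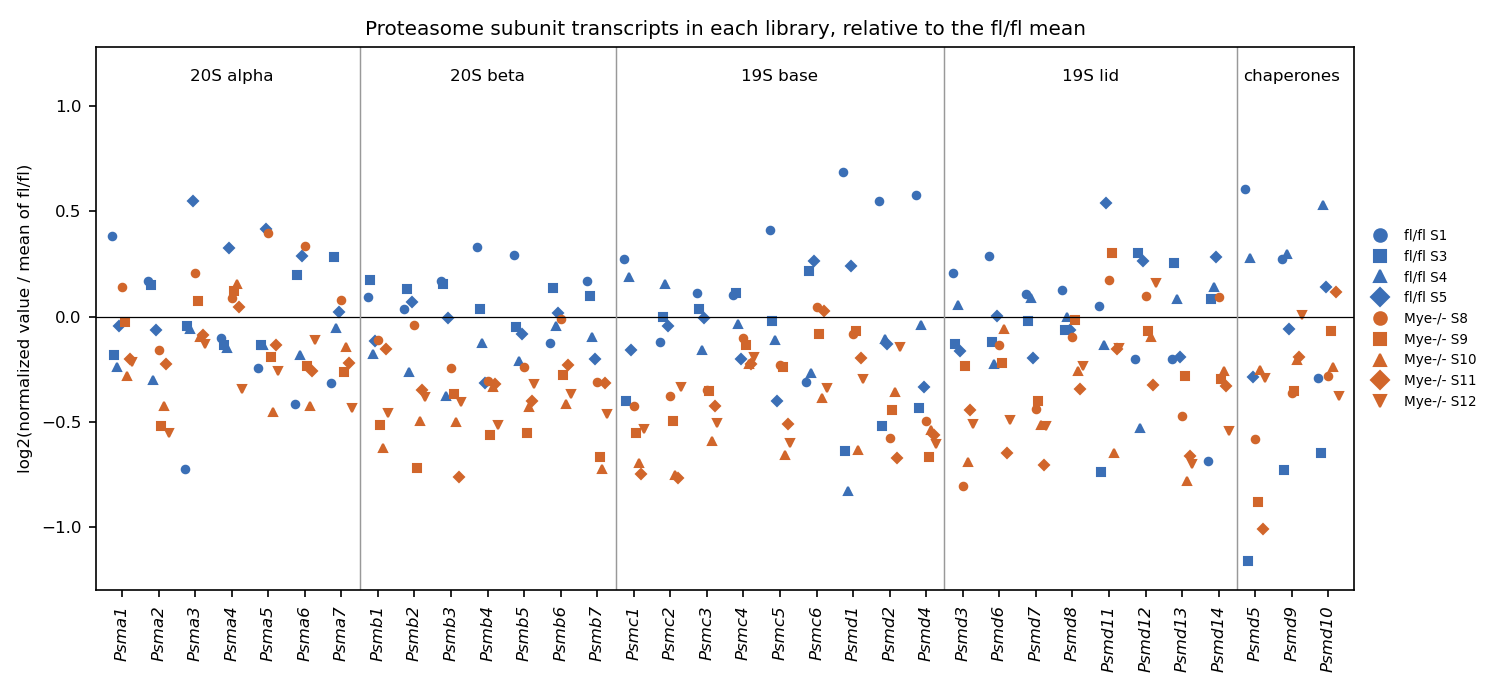
Log2 ratio of the normalized value in each library to the mean of the fl/fl libraries (0 line), for each of the 34 members on the horizontal axis, with fl/fl libraries in blue, Mye-/- libraries in orange and a symbol for each library. Orange points lie mostly below blue points for base, lid and beta members and are mixed with them for alpha members, and S1 is the highest point for 17 members.

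All 7 beta subunits were lower on average in Mye-/- macrophages, by a similar amount. Their log2 fold changes ran from -0.49 to -0.26 with a median of -0.39, 6 of 7 had an unadjusted limma p under 0.05, and 2 did not overlap between genotypes. Psmb7 (chromosome 2, 38588037 to 38643924), which carries the trypsin-like site, read 8188, 7787, 6812 and 6344 in fl/fl and 5869.7, 4589, 4408, 5847 and 5281 in Mye-/-. Every fl/fl library was above every Mye-/- library. The mean of 7283 ± 852 (SD, n = 4) in fl/fl compared with 5199 ± 685 (SD, n = 5) in Mye-/-, and the log2 fold change was -0.49 ± 0.14 (SE), with an adjusted p of 0.256 by limma and 0.0588 by DESeq2. Psmb5, which carries the chymotrypsin-like site, was the other member without overlap, with 6557, 5163, 4626 and 5048 in fl/fl and 4526, 3647, 3972, 4055 and 4288 in Mye-/-. S1 was highest, and S8 was just under S4. The log2 fold change of Psmb5 was -0.38 ± 0.14 (SE, limma adjusted p = 0.354).

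Psmb4, a structural beta subunit, read 14448, 11793, 10537 and 9231 in fl/fl and 9313, 7782, 9119, 9216 and 8054 in Mye-/-. Among fl/fl libraries, only S5 lay within the Mye-/- range. Psmb4 had a log2 fold change of -0.39 ± 0.14 (SE, limma adjusted p = 0.337). Psmb3, also without a catalytic site, read 3826, 3784, 2619 and 3383 in fl/fl and 2874, 2636, 2403, 2008 and 2573 in Mye-/-. Here S4 was the fl/fl library inside the Mye-/- range. For Psmb3 the log2 fold change was -0.44 ± 0.16 (SE, limma adjusted p = 0.348). Psmb6, which carries the caspase-like site, had the largest p of the beta subunits, with 7008, 8401, 7409 and 7725 in fl/fl and 7579, 6299, 5727, 6519 and 5928 in Mye-/-. S8 lay among the fl/fl libraries and the other 4 Mye-/- libraries below them. Psmb6 had a log2 fold change of -0.26 ± 0.13 (SE, limma adjusted p = 0.497). Psmb1 and Psmb2 had log2 fold changes of -0.37 and -0.39.

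The genotypes overlapped in all 7 alpha subunits, including both members of the particle with a fold change above 0. Their median log2 fold change was -0.10, 5 of 7 were below 0, and 1 had an unadjusted limma p under 0.05. The median moved from -0.23 (without S8) to -0.01 (without S5) when 1 library was left out, and was -0.18 without S1, -0.02 in the 11-week-old mice and -0.23 when the fit included how many features each library detected. Psma2 (chromosome 13, 14613240 to 14674238), part of the ring at each end of the core, was the member with the smallest p, with 12149, 11991, 8773 and 10347 in fl/fl and 9695, 7535, 8067, 9241 and 7381 in Mye-/-. S1 and S3 were high, and S4 lay inside the Mye-/- range. Means of 10815 ± 1587 (SD, n = 4) and 8384 ± 1034 (SD, n = 5) gave a log2 fold change that was -0.36 ± 0.14 (SE, limma adjusted p = 0.367).

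Psma7, another ring subunit and the member with the highest value, read 14321, 21647, 17157 and 18081 in fl/fl and 18802, 14856, 16109.8, 15286 and 13158 in Mye-/-. The ranges overlapped widely, with S1 low and S8 high within their groups. Psma7 had a log2 fold change of -0.18 ± 0.14 (SE, limma adjusted p = 0.689). Psma6 read 7642, 11691, 8990.1 and 12461 in fl/fl and 12862, 8678, 7599, 8526 and 9433 in Mye-/-. S8 was the highest library of all and S10 the lowest. Psma6 had a log2 fold change of -0.11 ± 0.17 (SE, limma adjusted p = 0.851). Psma4 had the largest p, with 3316, 3250.0, 3212 and 4472 in fl/fl and 3791, 3880.3, 3970.0, 3672 and 2804 in Mye-/-. S5 was far above the other fl/fl libraries, and S12 far below the other Mye-/- libraries. The log2 fold change was 0.03 ± 0.16 (SE, limma adjusted p = 0.968).

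For Psma3, which read 1432, 2296, 2275 and 3459.6 in fl/fl and 2731, 2489, 2213, 2229 and 2165 in Mye-/-, the log2 fold change was 0.06 ± 0.20 (SE). The fl/fl libraries spanned the whole Mye-/- range, with S1 lowest and S5 highest. Psma1 and Psma5 had log2 fold changes of -0.09 and -0.10. The sign of Psma1, Psma3, Psma4, Psma5 and Psma6 changed under 1 or more alternative settings. The 3 base assembly chaperones, which bind the ATPases before the cap is complete, had log2 fold changes of -0.46 ± 0.33 (SE) for Psmd5, -0.17 for Psmd9 and -0.10 for Psmd10, and 0 of 3 reached an unadjusted limma p under 0.05. Single libraries moved these values: Psmd5 was -0.80 without S3 and -0.21 without S1, Psmd9 was -0.39 without S3 and -0.05 without S4, and Psmd10 was -0.29 without S3 and 0.10 without S4.

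A score for each place in the particle, averaged over its members after each gene's log2 values were centred on their mean, shows the same layout by library. The base score was 0.49, 0.06, 0.11 and 0.15 in fl/fl and -0.05, -0.10, -0.30, -0.21 and -0.15 in Mye-/-, so that its genotypes did not overlap. The lid score was 0.15, 0.13, 0.12 and 0.25 against -0.01, 0.04, -0.23, -0.26 and -0.19, also without overlap. For the beta subunits it was 0.36, 0.32, 0.04 and 0.13 against 0.04, -0.30, -0.28, -0.14 and -0.19, where S8 lay just above S4. The alpha score was -0.09, 0.11, -0.07 and 0.30 against 0.24, -0.06, -0.15, -0.07 and -0.20, with wide overlap. S8 was the highest Mye-/- library in the alpha, beta and base scores, and in the lid score S9 was. Whether the places differ from each other in their response to genotype was not tested.

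**Figure D3:**
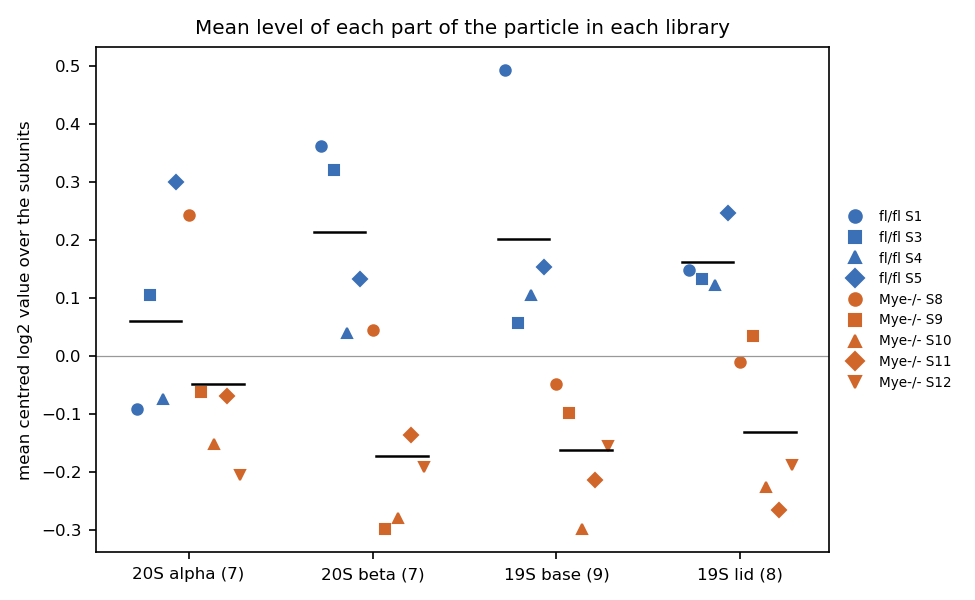
Score per library (mean over members of the centred log2 normalized value) for the alpha, beta, base and lid members, with fl/fl and Mye-/- libraries as points and group means as lines. Base and lid points of the genotypes do not overlap, the beta points meet at S4 and S8, and the alpha points overlap.

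The immunoproteasome subunits that replace Psmb5, Psmb6 and Psmb7 were measured beside them. Psmb8, which replaces Psmb5, read 10082, 8699, 7531 and 8072 in fl/fl and 6933, 5774, 7611, 6557 and 6264 in Mye-/-. S4 and S10 were the only libraries out of order between the genotypes. Its log2 fold change was -0.37 ± 0.13 (SE, limma adjusted p = 0.336). Psmb9 went from 3809.9 ± 1165 (SD, n = 4) to 3085 ± 208 (SD, n = 5), and Psmb10 from 5913 ± 1418 to 4857 ± 711, both with a log2 fold change of -0.26 and a limma adjusted p of 0.629 and 0.606. The thymus-specific Psmb11 was at 0 in every library.

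The balance between inducible and constitutive subunits within a library was compared by an exact two-sided permutation test over all regroupings of the libraries, whose smallest possible p is 0.00794. The log2 ratio of Psmb8 to Psmb5 was 0.69 ± 0.055 (SD, n = 4) in fl/fl and 0.69 ± 0.149 (SD, n = 5) in Mye-/-, a difference of 0.00 with a 95% interval from the exact permutation test of -0.16 to 0.20 (exact permutation p = 0.984, adjusted over 3 ratios 1). For Psmb9 to Psmb6 it was -1.05 ± 0.467 and -1.05 ± 0.105, with an interval of the difference of -0.57 to 0.37 (exact permutation p = 1, adjusted 1). S1 stood at -0.38 there, whereas the other fl/fl libraries lay between -1.43 and -1.08, and without S1 the difference was 0.22. For Psmb10 to Psmb7 it was -0.33 ± 0.309 and -0.10 ± 0.315, a difference of 0.23 with an interval of -0.29 to 0.79 (exact permutation p = 0.302, adjusted 0.905). No ratio passed the test, and the intervals of the last pair of ratios leave room for differences as large as those of single members.

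**Figure D4:**
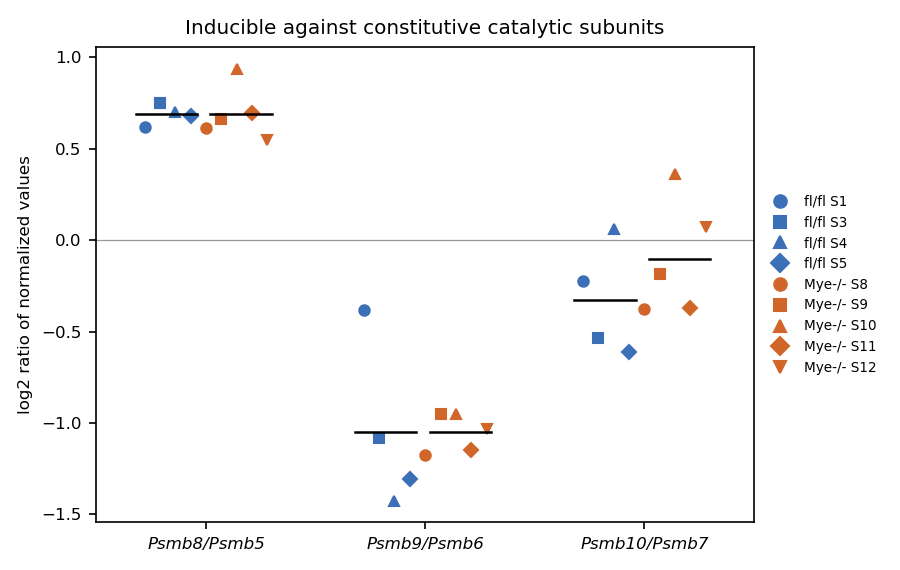
Log2 ratio of each immunoproteasome subunit to its constitutive counterpart in each library, by genotype, with group means. The Psmb8 to Psmb5 ratio has the same mean of 0.69 in both genotypes, and S1 stands apart in the Psmb9 to Psmb6 ratio.

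Genes around the proteasome were followed as lists. Over all features, 45.4% had a fold change below 0, and 4.13% were lower at an unadjusted limma p under 0.05. Of the 5 genes that assemble the 20S core, all had a fold change below 0 (median log2 -0.24), and 1 had an unadjusted limma p under 0.05. That was Pomp, the maturation factor of the core, which read 17461, 15079.7, 13057 and 13606 in fl/fl and 12412, 9737, 11762, 12264 and 10609.6 in Mye-/-. Every fl/fl library was above every Mye-/- library. Its log2 fold change was -0.38 ± 0.13 (SE, limma adjusted p = 0.332). Psmg3, a subunit of a chaperone of the alpha ring, had a log2 fold change of -0.43 ± 0.24 (SE), Psmg4 of -0.22 and Psmg2 of -0.24.

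Of the 5 alternative caps and the inhibitor, 3 were lower and 2 higher (median -0.20), with 2 lower at an unadjusted limma p under 0.05. Psme4, the PA200 activator, averaged 947 ± 275 (SD, n = 4) and 584 ± 151 (SD, n = 5), which is -0.69 ± 0.28 as a log2 fold change (SE, limma adjusted p = 0.408). Psme2 and Psme1, which form the interferon-induced 11S cap, had log2 fold changes of -0.34 ± 0.16 and -0.20 ± 0.13 (SE). Psmf1, the inhibitor PI31, was the one with the largest difference upward, 312 ± 135 against 469 ± 71.4, a log2 fold change of 0.68 ± 0.37 (SE, limma adjusted p = 0.536). Of 5 other proteins bound to the cap, 3 were lower and 2 higher (median -0.18), with 0 at an unadjusted limma p under 0.05. Shfm1, the small lid subunit now called Sem1, had a log2 fold change of -0.32 ± 0.16 (SE), the ubiquitin receptor Adrm1 of -0.25, and the deubiquitinases Uchl5 and Usp14 of -0.18 and 0.01.

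Among 14 regulators of subunit transcription, 4 were lower and 10 higher (median 0.07), with 0 lower and 1 higher at an unadjusted limma p under 0.05. Over all features the median was 0.06 and 45.4% were below 0, with 4.13% lower and 6.38% higher at that level. The regulator list was thus near all features. Nfe2l1, which encodes NRF1, read 4079, 2787, 4564 and 3589.6 in fl/fl and 2599.5, 3080.2, 2888, 2924 and 3289 in Mye-/-. S3 lay within the Mye-/- range, and the other 3 fl/fl libraries were above it. Its log2 fold change was -0.33 ± 0.16 (SE, limma adjusted p = 0.483). Nfe2l2, which encodes NRF2, had a log2 fold change of 0.12 ± 0.15 (SE, limma adjusted p = 0.821), and Keap1, its inhibitor, of -0.35 ± 0.18 (SE, limma adjusted p = 0.522). Mafk, a small MAF partner of both, was the regulator higher at the unadjusted level, 4523 ± 1205 (SD, n = 4) against 6406.5 ± 1012 (SD, n = 5), which on the log2 scale is 0.53 ± 0.18 (SE, limma adjusted p = 0.318). The heat shock factor Hsf1 had a log2 fold change of 0.29 ± 0.22 (SE, limma adjusted p = 0.679).

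Levels differed more between subunits than between genotypes, although the subunits of a particle are present in fixed proportion as proteins. Per kilobase of the principal transcript, the mean fl/fl level of the alpha subunits ran from 831 (Psma3) to 19476 (Psma7), a 23.4-fold range, and that of the beta subunits from 4443 (Psmb3) to 9723 (Psmb4), a 2.19-fold range. The base ran from 324 (Psmd1) to 5711 (Psmd4) and the lid from 379 (Psmd11) to 4897 (Psmd8). Psmd4, Psmd8 and Psmd10 had no transcript marked as principal, so the median length of their coding transcripts was used for them throughout. Medians per kilobase were 3715 for alpha, 6728 for beta, 3433 for base and 2829 for lid in fl/fl, and 3110.3, 5169, 2612 and 2151 in Mye-/-. These levels depend on the transcript model. With the median length of each gene's coding transcripts, Psma3 was at 2754 per kilobase in fl/fl and Psma5, at 918, became the lowest alpha subunit. Psmd2 went from 3433 to 15426 and replaced Psmd4 as the highest base subunit, and in the lid Psmd11 was at 1185 and Psmd13, at 5865, became the highest. The beta subunits kept their lowest and highest members. Within genotypes, the median coefficient of variation over members was 18.2% in fl/fl and 13.2% in Mye-/-.

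**Figure D5:**
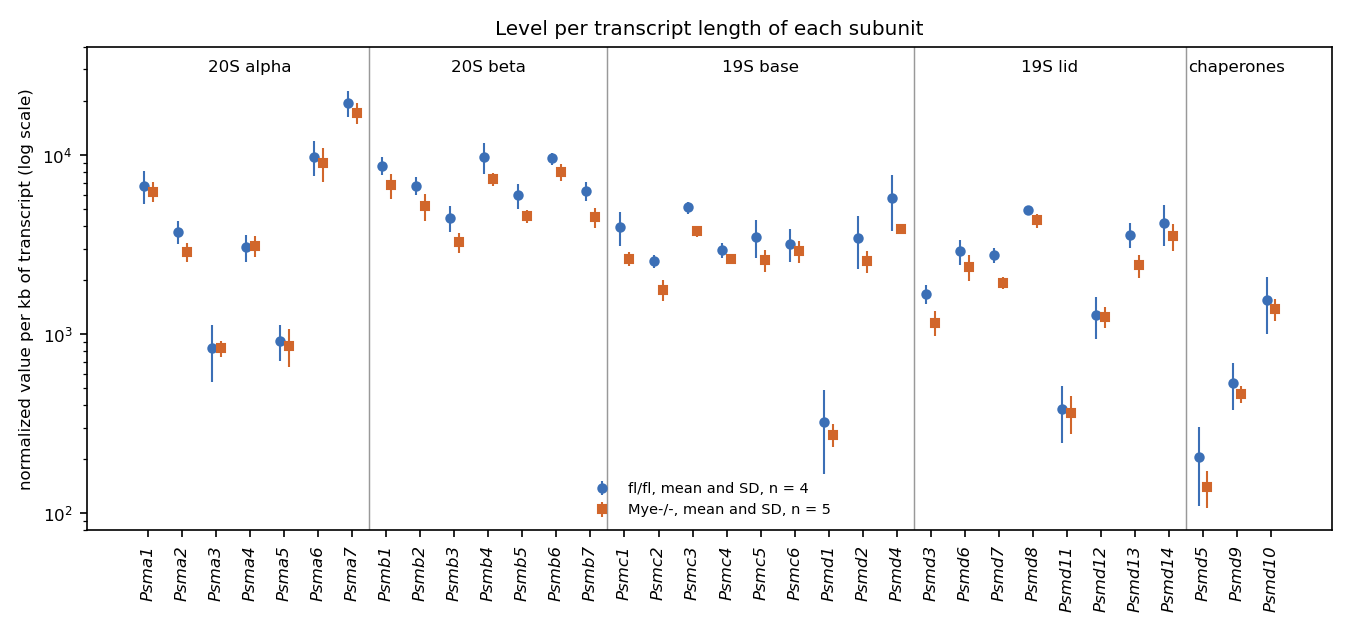
Mean normalized value per kilobase of principal transcript (log axis) of each member in fl/fl and Mye-/- libraries, grouped by place in the particle, with bars of 1 SD. For Psmd4, Psmd8 and Psmd10, which had no transcript marked as principal, the median length of the coding transcripts was used. Beta subunits lie within a 2.19-fold range in fl/fl, while alpha subunits span 23.4-fold, from Psma3 to Psma7.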

How the data were processed

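Gene expression of 9 macrophage libraries was taken from 1 table of normalized signal values that the authors deposited. Per the submitters' processing notes and the file headers, reads were processed with STAR 2.4.0, SAMtools, Picard and FastQC on mm10 with FAST DB gene models, and the authors divided counts by 1 DESeq size factor per sample, without a log or length correction. The counting tool, strand setting and treatment of duplicates are not given in the sources used here, and reads of antisense, overlapping or near-identical genes may therefore be mixed. All nonzero values (100% per library) were whole multiples of the smallest in their column, within 0.01 reads, which gave back whole reads. Without molecular identifiers, reads are not separate molecules.

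Log2(normalized value + 1) was tested with limma 3.58.1 in R 4.3.3, allowing a trend of variance with intensity, 5 Mye-/- against 4 fl/fl libraries, two-sided, over the 15288 features that reached 10 in 4 or more libraries, with Benjamini-Hochberg adjustment at 0.05. edgeR 4.0.16 and DESeq2 1.42.0 on the recovered reads were alternatives: edgeR called 2 of these features and DESeq2 146. P-values assume that each library is a separate mouse, which the labels do not state. On simulated counts for 15288 genes in this comparison, limma recovered 19.4% of 1.5-fold, 56.7% of 2-fold and 90.9% of 4-fold changes, with 5 false calls. Changes were placed only in genes above a floor on mean reads, so these rates do not cover features at a low level. Named members were, for each of alpha, beta, base and lid, the 3 with the smallest limma p and the 1 with the largest, and from other lists up to 4 with the smallest p and fixed key genes. Psmd4, Psmd2, Psmd14, Psmb5 and Psma3 were shown in addition, chosen after their values were seen. The members and lists were chosen with earlier results of these data known.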

Additional observations from a re-analysis of the deposited data

Results flagged for a closer look

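In 3 of 68 combinations of a member and a genotype, 1 library stood apart from the others of its group by Dixon's criterion (0.829 for 4 libraries, 0.71 for 5). Chance flags about 1 in 20 groups. Psma4 was 4472 in fl/fl S5, above 3212 to 3316 in the other fl/fl libraries, and 2804 in Mye-/- S12, below 3672 to 3970.0 in the other Mye-/- libraries. Psma5 was 1518 in fl/fl S5, above 960 to 1035 in the others. Neither gene differed between genotypes at an unadjusted limma p under 0.05.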

How the results depend on the processing

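Across 25 alternatives of scaling, filter, pseudocount, model, covariate and library set, the number of members past the adjusted threshold was 0 in 24 and 5 with DESeq2. The median log2 fold change of the 34 members stayed below 0 in all 25, from -0.38 (number of detected features as a covariate, added after seeing the data) to -0.26 (fl/fl S1 and S3 both left out, also added after), and from -0.36 to -0.27 when 1 library was left out. Members below 0 numbered 28 (without fl/fl S5) to 34. The 16 members lower at an unadjusted p under 0.05 became 4 in 11-week-old mice only and 6 with age as a covariate. They numbered 10 without a trend or without S1 and S3, 14 to 16 when 1 library was left out, and 17 with DESeq2. The share of all features lower at that level was not computed for these alternatives, so their counts have no background beside them. Age is partly tied to genotype, as all fl/fl mice were 11 weeks old and S9, S10 and S11 were 10 weeks old. Over all features, limma called 3, and the alternatives called from 0 (age as a covariate) to 146 (DESeq2), with 20 without S5. In all 14 alternatives each, the 3 subunit ratios did not pass the threshold. In the 11-week-old mice no ratio could pass, because the few regroupings keep the smallest possible exact permutation p above 0.05. Where libraries were left out, a ratio could not pass after adjustment on its own. Most of these alternatives therefore had little or no room to differ. The median over all features lay between -0.00 and 0.10. No paired analysis was possible because the genotypes share no replicate numbers. With 4 and 5 libraries, recovery of 1.5-fold changes was low in simulation, so a member that missed the threshold is not shown to be equal between genotypes.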

Other observations

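Members at a low level differed less between genotypes than members at a high level. The 8 members with a mean normalized value under 2500 over the 9 libraries (Psma3, Psma5, Psmd1, Psmd11, Psmd12 and the 3 chaperones Psmd5, Psmd9 and Psmd10) had a median log2 fold change of -0.10, from -0.46 to 0.06, and 0 of 8 had an unadjusted limma p under 0.05. The other 26 members had a median of -0.38, from -0.57 to 0.03, and 16 of 26 passed that level. Low members also varied more, with a median coefficient of variation in fl/fl of 35.2% against 15.9%. Among the 3334 features with means from the lowest member up to 2500, 5.07% were lower at that level, and among the 2383 from 2500 up to the highest member, 11.0%. This split was chosen after the values were seen and was not tested.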
